A study of Mus musculus with 24 samples.

Results

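The genes of fibroblast growth factor (FGF) signalling described here are the ligands *Fgf7*, *Fgf10* and *Fgf18*, the receptors *Fgfr1*, *Fgfr2*, *Fgfr3* and *Fgfr4*, and the intracellular inhibitors *Spry1*, *Spry2* and *Spry4*. They were taken by gene symbol and make up 10 of the 23420 genes listed for each lung. These genes and the gene lists used below were chosen with earlier results of these data known. Libraries were made from the whole left lung lobe of 24 newborn mice in 8 groups of 3. At postnatal day 2 (P2) and day 5 (P5), lungs of Sox9Cre/+; Vangl2f/f mice and of Sox9Cre/+; Ror2f/f mice were each set against their own controls. These controls are labelled WT with their values, and Control(Vangl1/2) or Control(Ror2) in the sample titles. *Vangl2* encodes a core component of planar cell polarity and *Ror2* a receptor for Wnt5a, and the study asked how both act in the formation of alveoli. *Sox9*-Cre acts in the distal lung epithelium, while a whole lobe also holds mesenchyme, vessels and blood. A lower value can therefore mean fewer cells that express a gene or less RNA in each cell, and these cannot be told apart in whole lobes. Cre is named only in the mutants, so carrying Cre and losing the floxed gene cannot be told apart either. Nothing states which lungs came from litter-mates. The genotype entries of the P2 *Ror2* mutants and of the P5 *Vangl2* mutants name the other floxed gene, and the sample titles were followed.

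FGF ligands are secreted proteins that bind receptor tyrosine kinases together with heparan sulfate, and the receptors pass the signal on mainly through RAS and the kinase ERK. In the lung, *Fgf7* and *Fgf10* are made by mesenchymal cells and act on the epithelial form of the receptor encoded by *Fgfr2*, which drives branching and supports alveolar type II cells. *Fgf18* is made in the mesenchyme, *Fgfr1* is used mostly by mesenchymal cells, and mice lacking both *Fgfr3* and *Fgfr4* fail to form secondary septa. Sprouty proteins are induced by the pathway and restrain it. Transcript counts for a whole gene do not separate the epithelial and mesenchymal splice forms of the receptors.

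Values are normalized counts, that is, reads on a gene scaled by the size factor of the lung, and each comparison was normalized apart. Between 16178031 and 21546673 reads fell on genes in 23 of the lungs. The other lung, control replicate 1 of the *Ror2* comparison at P5, had 13823693 reads and none on 3661 expressed genes of chromosomes 6 to 9 and X, and reads on only 242 of 850 expressed genes of chromosome 5. Its value was therefore set to missing for genes on chromosomes 5 to 9 and X, which leaves 2 controls for *Fgfr1*, *Fgfr2* and *Fgfr3* in that comparison. The targeted genes were lower in their own mutants to differing degrees. *Vangl2* averaged 325 ± 39.3 normalized counts (SD, n = 3) in P5 controls and 161 ± 11.7 in P5 mutants (49.6% of the control mean, limma adjusted p = 0.0604, or 0.0194 when blocked by replicate number). At P2 its log2 fold change was -0.39 (adjusted p = 0.241). In its own mutants *Ror2* differed by -0.38 on the log2 scale at P2 (adjusted p = 0.250) and by -0.16 at P5 (adjusted p = 0.692), with overlapping groups at both ages, so these libraries give little check of the *Ror2* labels.

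All 10 genes were well above the filter on low values in every lung that could be read, and all 10 were tested in each comparison. Per kilobase of annotated exon, *Spry1* had the highest control level of the 10 in every comparison, from 1394 ± 87.8 normalized counts per kb in the P2 *Vangl2* controls (SD, n = 3) to 1934 ± 538 in the P5 *Ror2* controls. Its lowest control lung lay above the highest lung of the next gene each time. *Fgf7* was the lowest, between 113.9 ± 7.58 normalized counts per kb in the P2 *Vangl2* controls and 158 ± 43.1 in the P5 *Vangl2* controls, and *Fgf10* the next lowest, between 204 ± 10.3 and 320 ± 17.3. The receptors lay between these ends. In the P2 *Ror2* controls the order per kb was *Fgfr3* with 969 ± 75.4 normalized counts per kb, then *Fgfr2* with 711 ± 14.0, *Fgfr4* with 688 ± 53.3 and *Fgfr1* with 456 ± 53.5. The levels of *Fgfr2* and *Fgfr4* overlapped there, and in the P5 *Vangl2* controls all 4 receptors, *Fgf18* and *Spry4* formed a run in which every neighbour overlapped the next. Exons of *Fgf10*, *Fgfr1*, *Fgfr3* and *Spry1* overlap an annotated gene on the opposite strand. Since the use of strand in counting is not stated, reads in those stretches may belong to either gene. Exons of *Fgfr2* overlap *Ctbp2* on the same strand, where strand could not separate the reads of the 2 genes.

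**Figure D1:**
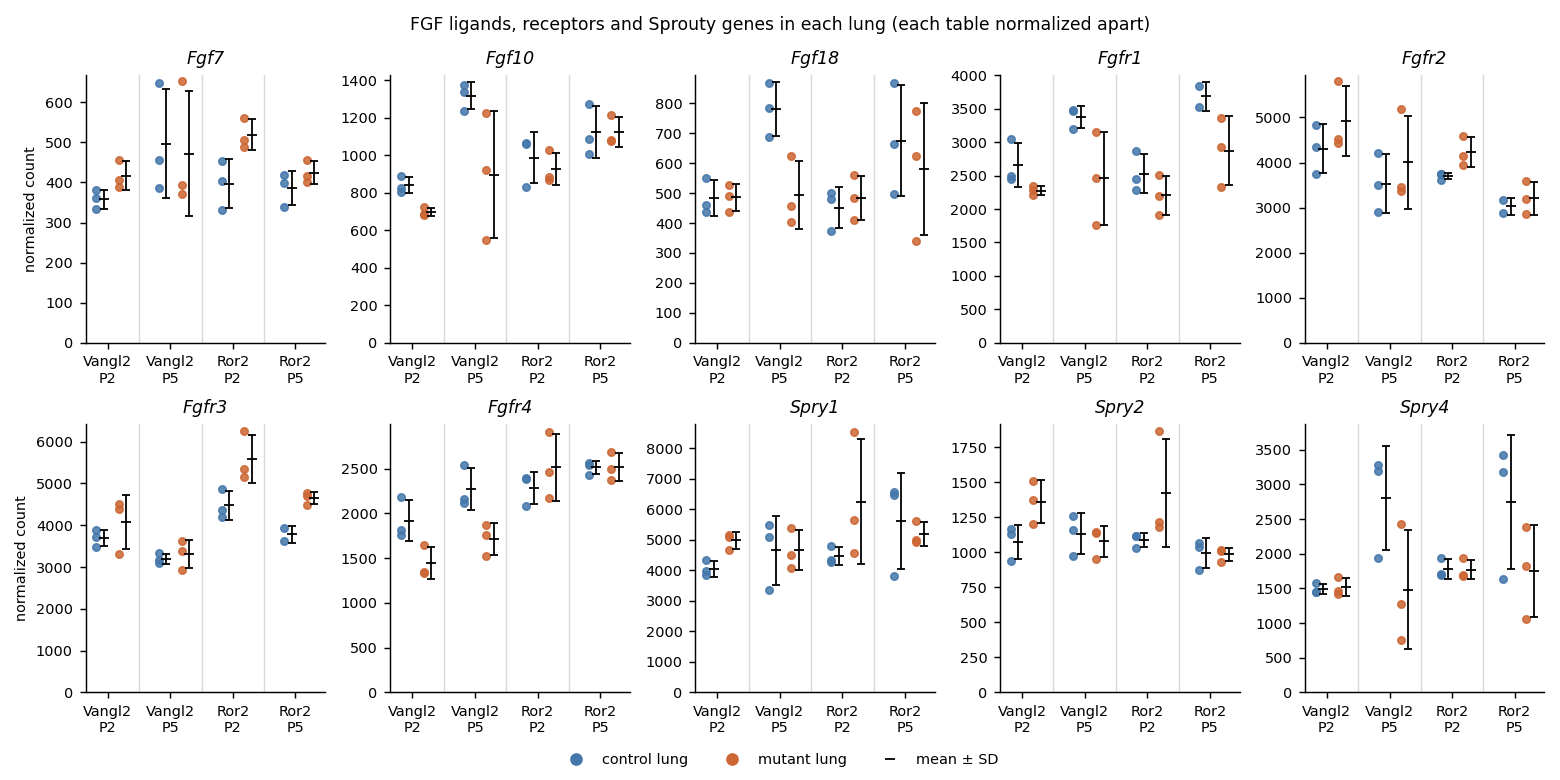
Normalized count of each of the 10 genes in every lung, with 1 panel per gene, the 4 comparisons along the x axis and the y axis starting at 0. Points are single lungs, bars are the mean ± SD of the lungs of a group, and 3 receptors have 2 control lungs in the P5 *Ror2* comparison. Fgf10, Fgf18, Fgfr1 and Fgfr4 separate the P5 *Vangl2* groups, while the P5 values of Spry4 are scattered in every group.

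With limma and Benjamini-Hochberg adjustment over all genes tested, none of the 10 genes passed an adjusted p of 0.05 in any of the 4 comparisons. Nor did any with edgeR on the recovered reads, while DESeq2 called *Fgf18* in the P5 *Vangl2* comparison (adjusted p = 0.0491) and *Fgfr3* in the P5 *Ror2* comparison (adjusted p = 0.0360). Over all genes, 3.59% passed in the *Vangl2* comparison at P2, 0.563% at P5, 0% in the *Ror2* comparison at P2 and 0.122% at P5. The numbers of the 10 with an unadjusted p under 0.05 were 4 at P2 and 5 at P5 in the *Vangl2* comparisons, beside 22.5% and 18.8% of all genes. In the *Ror2* comparisons they were 3 at P2 and 2 at P5, beside 19.3% and 18.4% of all genes. All 5 at P5 in the *Vangl2* comparison were lower in mutants, where 8.35% of all genes were lower at that level, and all 3 at P2 in the *Ror2* comparison were higher, where 9.55% of all genes were. Same-numbered lungs moved together around their group means in the P5 *Vangl2* comparison (r = 0.38, 0.35 and 0.23 over genes). In the P2 *Ror2* comparison these r were 0.06, 0.21 and 0.13, and only in P5 *Vangl2* did all exceed 0.1. The P5 *Vangl2* comparison is therefore also given with replicate number as a block, a pairing taken from the data. With the block, *Fgf18* and *Fgfr4* passed the adjusted threshold, both lower in mutants, and 8.95% of all genes passed, of which those lower in mutants made up 3.48% of all genes. Leaving out both lungs of 1 number in the blocked comparison left 0 of the 10 called without number 1 or number 2, and 3 without number 3 (*Fgf18*, *Fgfr4* and *Spry4*).

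**Figure D2:**
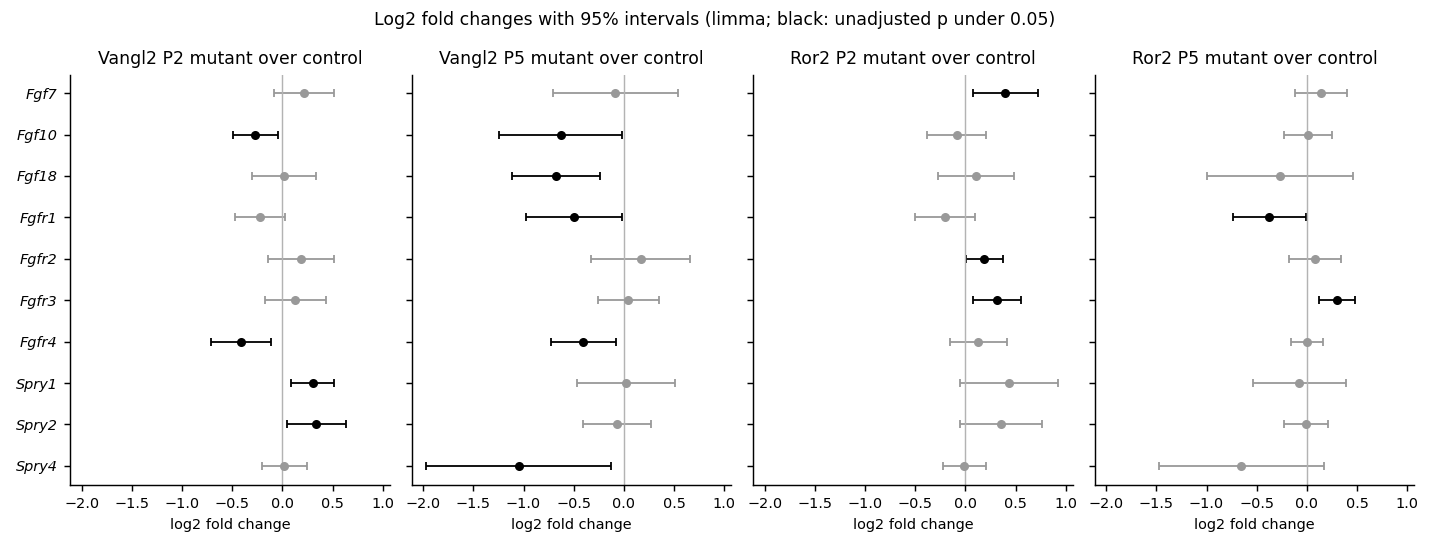
Log2 fold change (x axis) of the 10 genes (rows), mutant over control, in the 4 comparisons (panels), with bars for the 95% interval from limma without the block. Black marks an unadjusted p under 0.05: 4 genes at P2 and 5 at P5 for *Vangl2*, 3 at P2 and 2 at P5 for *Ror2*, and none has an adjusted p under 0.05.

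Of the ligands, *Fgf18* had the lowest p, at P5 in the *Vangl2* comparison. The gene lies on chromosome 11 (chr11:33116970-33147400, minus strand, GRCm38.p6). Control lungs at P5 had 868, 783 and 687 normalized counts of *Fgf18*, and the *Vangl2* mutants with the same numbers had 458, 622 and 402. No mutant lung reached the lowest control, and each was below the control of its own number. The mean fell from 779 ± 90.2 (SD, n = 3) to 494 ± 114 normalized counts. In limma with the replicate block the log2 fold change was -0.67 (standard error 0.14, adjusted p = 0.0361). Without the block the standard error was 0.19 and the adjusted p was 0.132, and leaving out single lungs moved the log2 fold change between -0.85 and -0.54. At P2 the *Vangl2* controls ranged from 435 to 550 normalized counts of *Fgf18* and the mutants from 438 to 528, so that the groups overlapped (log2 fold change 0.01, 95% interval -0.30 to 0.33). The P5 effect minus the P2 effect was -0.69 on the log2 scale (standard error 0.24, unadjusted p = 0.0145, limma adjusted p = 0.577), where 8.45% of all genes had an unadjusted p under 0.05. In the *Ror2* lungs *Fgf18* overlapped at both ages, with log2 fold changes of 0.10 (95% interval -0.27 to 0.48) at P2 and -0.26 (-0.99 to 0.46) at P5. The *Vangl2* effect minus the *Ror2* effect at P5 was -0.41 (95% interval -1.29 to 0.47, limma adjusted p = 0.998), so a difference between the mutants was not shown.

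*Fgf10*, the mesenchymal ligand that guides branching, was lower in the *Vangl2* mutants at both ages without passing the adjusted threshold. At P2 it had 807, 888 and 827 normalized counts in controls and 686, 722 and 683 in mutants. These groups did not overlap, and the log2 fold change was -0.27 (standard error 0.10, limma adjusted p = 0.162). At P5 the controls had 1238, 1340 and 1375 normalized counts of *Fgf10* and the mutants 921, 1225 and 546. The mutants again lay below the controls, but mutant replicate 2 was close to them and mutant replicate 3 was far below. On the log2 scale the difference was -0.63 ± 0.27 (standard error; limma adjusted p = 0.256, blocked 0.111). It was -0.31 without mutant replicate 3 and -0.89 without mutant replicate 2. In the *Ror2* comparisons *Fgf10* overlapped at both ages, with log2 fold changes of -0.08 (95% interval -0.38 to 0.21) at P2 and 0.01 (-0.23 to 0.25) at P5.

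*Fgf7*, the other ligand of epithelial *Fgfr2*, differed most in the *Ror2* comparison at P2, where the mutants were higher. The controls had 455, 403 and 333 normalized counts and the mutants 507, 488 and 562, with no overlap between the groups. They differed by 0.40 on the log2 scale (standard error 0.14, unadjusted p = 0.0230, limma adjusted p = 0.216). In the *Vangl2* comparison at P2 the groups did not overlap either, with controls from 333 to 380 normalized counts and mutants from 388 to 457 (log2 fold change 0.22, adjusted p = 0.356). At P5 the *Vangl2* values of *Fgf7* followed the replicate number, with 386, 648 and 457 normalized counts in controls and 371, 653 and 393 in mutants. The log2 fold change was -0.09, with a 95% interval of -0.71 to 0.54, which narrowed to -0.37 to 0.20 with the block. At P5 in the *Ror2* comparison it was 0.14 (95% interval -0.12 to 0.40).

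Of the receptors, *Fgfr4* was lower in the *Vangl2* mutants at both ages by nearly the same amount. The gene lies on chromosome 13 (chr13:55152818-55168759, plus strand, GRCm38.p6). At P2 the controls had 2184, 1761 and 1811 normalized counts and the mutants 1348, 1646 and 1331. At P5 the controls had 2543, 2119 and 2158 and the mutants 1875, 1524 and 1756. At neither age did a mutant lung reach a control lung, and the mutant mean was 75.1% of the control mean at P2 and 75.6% at P5. On the log2 scale the change was -0.41 at P2 (standard error 0.13, limma adjusted p = 0.117) and -0.40 at P5 (standard error 0.14, adjusted p = 0.186). With the block, *Fgfr4* at P5 had a standard error of 0.10 and an adjusted p of 0.0489. In the *Ror2* comparisons the groups overlapped, with log2 fold changes of 0.13 (95% interval -0.15 to 0.41) at P2 and 0.00 (-0.16 to 0.16) at P5. The *Vangl2* effect differed from the *Ror2* effect by -0.54 (standard error 0.18, unadjusted p = 0.0123) at P2 and by -0.40 (standard error 0.15, unadjusted p = 0.0190) at P5. Neither difference passed adjustment over all genes (limma adjusted p = 0.946 and 0.938), and 4.6% and 4.73% of all genes had an unadjusted p under 0.05 in those tests.

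The stretches of 250 bases before the RefSeq start of *Fgf18* and *Fgfr4* are shown because these were the members that passed with the block. They are printed on the strand of the gene, from GRCm38.p6. Capitals mark CCGGAA, a form of the letters bound by ETS factors, which include the FGF-induced *Etv4* and *Etv5*. It was searched on both strands together with TATAAA.
Fgf18 (chr11:33147401-33147650, minus strand): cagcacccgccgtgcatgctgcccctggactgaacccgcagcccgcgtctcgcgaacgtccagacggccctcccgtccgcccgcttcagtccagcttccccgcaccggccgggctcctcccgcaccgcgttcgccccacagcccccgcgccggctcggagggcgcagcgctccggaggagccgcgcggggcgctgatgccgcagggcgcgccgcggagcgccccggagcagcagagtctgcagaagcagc
Fgfr4 (chr13:55152568-55152817, plus strand): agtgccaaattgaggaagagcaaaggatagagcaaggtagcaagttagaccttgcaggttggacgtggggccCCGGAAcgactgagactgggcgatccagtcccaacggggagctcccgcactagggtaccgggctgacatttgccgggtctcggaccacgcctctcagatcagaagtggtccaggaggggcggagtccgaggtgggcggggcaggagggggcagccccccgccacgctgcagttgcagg
Of the 8 members with an entry, *Fgfr4* alone held CCGGAA, which 12.22% of 27025 such stretches hold. Shorter or other forms bound by ETS factors were not searched. None of the 8 held TATAAA, which 12.97% hold. The stretch before *Fgf18* is 77.2% G and C, more than in 97.58% of all stretches, and that before *Fgfr4* is 64% G and C, against a median of 52% over all. A match of letters describes the sequence and shows no binding.

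*Fgfr3*, the receptor that acts jointly with *Fgfr4* in septation, was higher in the *Ror2* mutants at both ages. At P2 the controls had 4872, 4204 and 4365 normalized counts and the mutants 5355, 5154 and 6249. The difference was 0.32 on the log2 scale (standard error 0.10, limma adjusted p = 0.208). At P5 the 2 controls kept had 3632 and 3926 normalized counts (3330 in the control set to missing) and the 3 mutants 4688, 4759 and 4495. Here the log2 difference was 0.30 ± 0.08 (standard error; limma adjusted p = 0.149), and the mutants lay above the controls at both ages. With 3 lungs against 2 the smallest p of the exact two-sided permutation test is 0.2, and among genes with 2 controls 37.7% had groups that did not overlap. In the *Vangl2* comparisons *Fgfr3* overlapped at both ages, with log2 fold changes of 0.13 (95% interval -0.17 to 0.43) at P2 and 0.05 (-0.26 to 0.35) at P5.

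*Fgfr1*, the main mesenchymal receptor, had a lower mean in mutants in all 4 comparisons and passed in none. At P5 the *Vangl2* controls had 3468, 3195 and 3476 normalized counts and the mutants 3151, 2471 and 1762. The mutant of replicate 1 lay just below the lowest control, and that of replicate 3 was the farthest away. Its log2 fold change was -0.50 (standard error 0.21, limma adjusted p = 0.247, blocked 0.102), and -0.28 without mutant replicate 3. At P5 in the *Ror2* comparison the 2 usable controls had 3527 and 3840 normalized counts and the mutants 2324, 2936 and 3357. The mutants lay below both, by -0.37 ± 0.15 on the log2 scale (standard error; limma adjusted p = 0.261). At P2 the log2 fold change of *Fgfr1* was -0.22 in the *Vangl2* comparison (95% interval -0.47 to 0.03), without overlap, and -0.20 in the *Ror2* comparison (-0.50 to 0.09), with overlap. *Fgfr2*, the receptor for *Fgf7* and *Fgf10*, had higher means in mutants each time, with log2 fold changes of 0.19, 0.17, 0.19 and 0.08 for *Vangl2* P2, *Vangl2* P5, *Ror2* P2 and *Ror2* P5. The P2 *Ror2* groups alone did not overlap, with 3618, 3749 and 3739 normalized counts in controls and 4151, 3939 and 4593 in mutants (adjusted p = 0.255).

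Among the inhibitors, *Spry1* and *Spry2* had higher means in P2 mutants, and *Spry4* a lower mean in P5 mutants, without passing the adjusted threshold. At P2 the *Vangl2* controls had 4333, 3838 and 3979 normalized counts of *Spry1* and the mutants 4680, 5100 and 5174. The groups did not overlap (log2 fold change 0.30, standard error 0.09, limma adjusted p = 0.117). *Spry2* had 1164, 1129 and 939 normalized counts in the same controls and 1509, 1373 and 1202 in the mutants (log2 fold change 0.34, standard error 0.13, adjusted p = 0.175), again without overlap. In the P2 *Ror2* comparison the means were higher too, but 1 mutant carried much of it: mutant replicate 3 had 8536 normalized counts of *Spry1* and 1866 of *Spry2*, against at most 5656 and 1218 in the other mutants. The log2 fold changes were 0.43 for *Spry1* and 0.35 for *Spry2*, and without that lung 0.19 and 0.14. The groups of *Spry1* overlapped there, and those of *Spry2* did not. At P5 both genes overlapped in both comparisons, with log2 fold changes between -0.07 and 0.02.

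*Spry4* had the widest spread of the 10 genes at P5. Its coefficient of variation within a group lay between 4.89% and 8.47% in the 4 groups at P2, and between 26.6% and 58.0% in the 4 groups at P5. The P5 *Vangl2* controls had 3281, 1947 and 3201 normalized counts and the mutants 2432, 1269 and 751. The groups overlapped, since the mutant of replicate 1 exceeded the control of replicate 2, but each mutant was below the control of its own number. At -1.05 the log2 fold change (standard error 0.40, limma adjusted p = 0.216, blocked 0.0703) was the largest in size of the 10 genes in the 4 comparisons. It was -0.64 without mutant replicate 3 and -1.49 without mutant replicate 1. In the P5 *Ror2* comparison the controls had 1640, 3423 and 3179 normalized counts and the mutants 1055, 1825 and 2383. These groups overlapped too, with a log2 fold change of -0.65 (95% interval -1.47 to 0.17). At P2 the log2 fold changes of *Spry4* were 0.02 and -0.01. The P5 effect minus the P2 effect of *Spry4* in the *Vangl2* lungs was -1.07 (standard error 0.46, unadjusted p = 0.0392, limma adjusted p = 0.577).

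**Figure D3:**
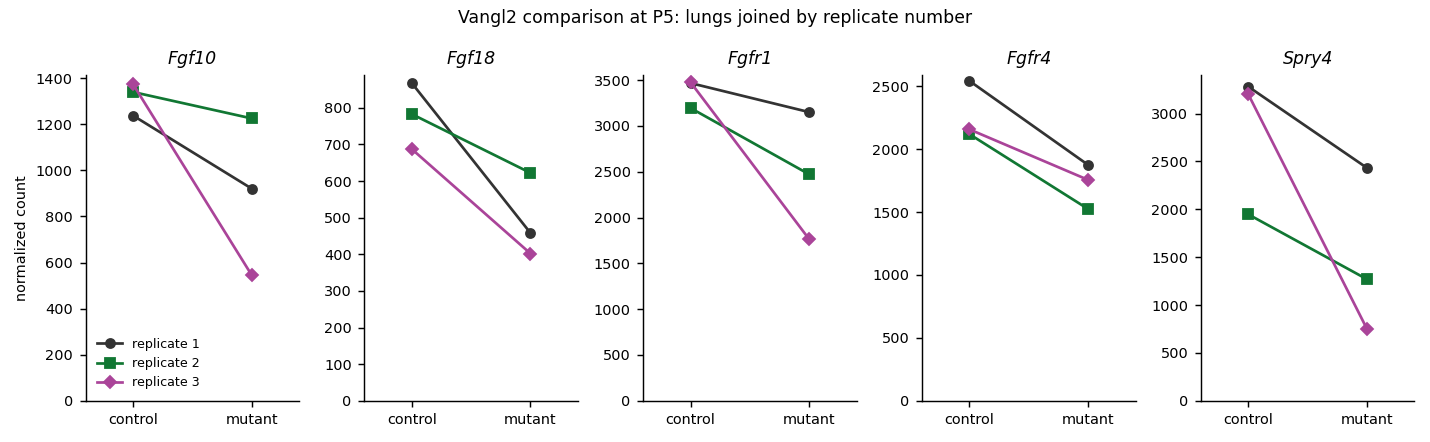
Normalized counts (y axis, starting at 0) of the 5 genes with an unadjusted p under 0.05 in the P5 *Vangl2* comparison, with each control joined to the mutant of the same replicate number. All 15 lines go down from control to mutant, and replicate 3 has the steepest line for Fgf10, Fgfr1 and Spry4.

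Groups that did not overlap were counted as well, since 0.1 is the smallest p that the exact permutation test can give for 3 lungs against 3. In the *Vangl2* comparisons 6 of the 10 genes did not overlap at P2 (29.6% of all genes) and 4 at P5 (25.7%). The 4 at P5, *Fgf10*, *Fgf18*, *Fgfr1* and *Fgfr4*, were all lower in mutants, as 12.5% of all genes were. In the *Ror2* comparison at P2, 4 genes did not overlap (25.7% of all genes), and these, *Fgf7*, *Fgfr2*, *Fgfr3* and *Spry2*, were all higher, as 13.4% of all genes were. At P5 the groups of all 7 genes with 3 controls overlapped, while 26% of such genes did not overlap. The 4 differences between effects, of P5 from P2 for each mutant and of *Vangl2* from *Ror2* at each age, gave no member with a limma adjusted p under 0.05. Over all genes 0% passed in 3 of them and 0.0118% in the difference of *Vangl2* from *Ror2* at P5. At an unadjusted p under 0.05 they gave 2 members (*Fgf18* and *Spry4*) for the age difference in *Vangl2* lungs, none for that in *Ror2* lungs, where 9.5% of all genes had one, and *Fgfr4* for both differences between the mutants.

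Within groups, some of the 10 genes deviated together. Over 23 lungs, the deviations of log2 values from the group means had r = 0.75 for *Fgfr1* and *Spry4* and r = 0.69 for *Fgfr3* and *Spry2*, and over 24 lungs r = 0.69 for *Spry1* and *Spry2* and r = 0.58 for *Fgf18* and *Spry4*. The lungs of each comparison share a normalization and the whole lobe, and these are descriptions. Outside the 10, the 2 genes closest to each member were sought among 12651 genes by Pearson's r of log2 values, relative to each comparison's controls, over 23 or 24 lungs. For the ligands they were *Dstyk* and *Zfp664* for *Fgf7* (r = 0.90 and 0.89), *Arhgap42* and *Fam171a1* for *Fgf10* (r = 0.92 for both) and *Fbxw11* and *Trpc1* for *Fgf18* (r = 0.85 and 0.84). For the receptors they were *Rerg* and *Postn* for *Fgfr1* (r = 0.91 and 0.90), *Phf13* and *Zdbf2* for *Fgfr2* (r = 0.81 and 0.80), *Als2cl* and *Kank3* for *Fgfr3* (r = 0.89 for both) and *Brd9* and *Gtf3c5* for *Fgfr4* (r = 0.87 and 0.84). *Postn* encodes a matrix protein of fibroblasts. For the inhibitors they were *Flrt3* and *Trib1* for *Spry1* (r = 0.89 and 0.83), *Galnt18* and *Tns1* for *Spry2* (r = 0.88 and 0.86) and *Pdzrn3* and *Arhgef17* for *Spry4* (r = 0.91 for both).

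Downstream of the receptors, 20 genes were listed as feedback regulators or targets of ERK. In the *Vangl2* comparison at P2, 2 of the 20 were lower at an adjusted p under 0.05 and none was higher. Over all genes 2.09% were lower and 1.5% higher at that level. The list's median log2 fold change was -0.06, beside 0.00 over all genes. At an unadjusted p under 0.05, 3 of the 20 were lower and 2 higher, where 10.8% and 11.7% of all genes were. *Etv4*, an ETS factor induced by FGF in distal epithelium, fell from 471 ± 122 to 156 ± 63.2 normalized counts (SD, n = 3; log2 fold change -1.65, limma adjusted p = 0.0408). *Ccnd1*, which encodes cyclin D1, fell from 4502 ± 478 to 2728 ± 492 (log2 fold change -0.73, adjusted p = 0.0396). At P5 none of the 20 passed without the block, while 15 had a log2 fold change below 0 and the median was -0.47. At an unadjusted p under 0.05, 8 of the 20 were lower and 1 was higher, where 8.35% and 10.4% of all genes were. With the block 6 passed as lower and none as higher: *Etv1*, *Etv4*, *Ccnd1*, *Spred2*, *Phlda1* and *Egr1*. Over all genes, 3.48% passed as lower and 5.47% as higher with the block. Of the 6 that fell, *Etv4* went from 626 ± 124 to 330.5 ± 106 normalized counts (log2 fold change -0.96, adjusted p = 0.0322 with the block) and *Etv1*, a related ETS factor, from 1126 ± 164 to 588 ± 215 (adjusted p = 0.0194 with the block). The groups of *Phlda1* overlapped (limma adjusted p = 0.314 without the block). *Egr1* was widely spread, with 4671, 4848 and 12319 normalized counts in controls and 3861, 973 and 1683 in mutants. In the *Ror2* comparisons none of the 20 passed. The medians were -0.04 at P2 and -0.40 at P5, where 16 of the 20 were below 0. At an unadjusted p under 0.05, 7 were lower and 1 was higher at P5 (8.35% and 10% of all genes). At P2, 0 were lower and 3 higher at that level (9.71% and 9.55% of all genes). At P5 *Dusp5*, an ERK phosphatase, counted 318, 342 and 419 in the 3 controls and 142, 141 and 201 in the 3 mutants (log2 fold change -1.16, limma adjusted p = 0.0781), and *Phlda1* had a log2 fold change of -0.46 (adjusted p = 0.147). At P2 *Ier3*, an early response gene, was the nearest to passing, with a log2 fold change of 0.95 (adjusted p = 0.203).

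**Figure D4:**
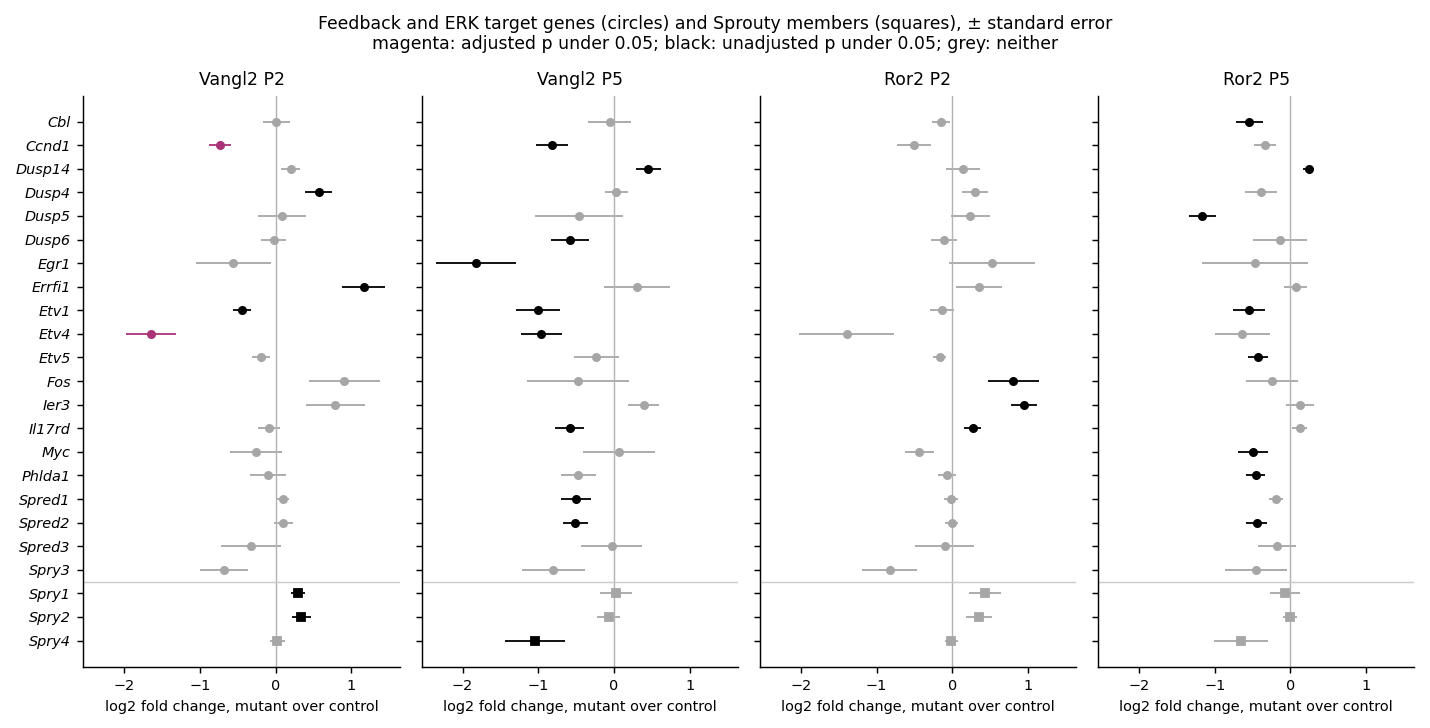
Log2 fold change (x axis, mutant over control, ± standard error without the block) of the 20 feedback and ERK target genes (circles) and the 3 Sprouty members (squares) in the 4 comparisons (panels). At P5 15 of the 20 lie below 0 for *Vangl2* and 16 for *Ror2*, and the magenta points at P2 are Ccnd1 and Etv4.

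Of the 19 other FGF ligands, 11 to 13 had enough reads to be tested. Only *Fgf12*, an intracellular member of the family, passed in the *Vangl2* comparison at P2, where it fell from 186 ± 7.08 to 78.5 ± 4.46 normalized counts (log2 fold change -1.23, limma adjusted p = 0.0286). At P5 it averaged 249 ± 51.0 in controls and 110 ± 42.2 in mutants (-1.22, adjusted p = 0.115, and 0.0401 with the block). Of 23 receptor partners and heparan sulfate genes, 14 had log2 fold changes above 0 and 9 below in the *Vangl2* comparison at P2. Only *Fgfbp1*, which encodes a carrier that releases FGFs from the matrix, passed there. It rose from 293 ± 53.6 to 858 ± 269.5 normalized counts (log2 fold change 1.52, limma adjusted p = 0.0295). At P5 its log2 fold change was 1.16 (adjusted p = 0.0790, and 0.0143 with the block). With the block 4 of these 23 also passed as lower at P5, where 3.48% of all genes did. They were the syndecans *Sdc2* and *Sdc3* and the heparan sulfate enzymes *Hs6st2* and *Ext2*. None of the 4 passed without the block, and the groups of *Ext2* overlapped (adjusted p = 0.283 without the block). In the *Ror2* comparisons no gene of either list passed. *Fgf12* had a lower mean in the *Ror2* mutants too, with a log2 fold change of -1.095 at P2, where the groups overlapped. At P5 its *Ror2* controls had 377, 399 and 478 normalized counts and the mutants 271, 310 and 323 (log2 fold change -0.47, limma adjusted p = 0.151). *Fgf17* and *Sdc4* were nearest at P2 with limma adjusted p of 0.203 for both, *Fgf17* having at most 4.74 normalized counts in any of those lungs. None of the 22 genes that relay the signal inside the cell passed in any comparison, with or without the block. The lowest unadjusted p among them was that of the adaptor gene *Shc1* at P5 in the *Ror2* comparison (log2 fold change -0.33, adjusted p = 0.121).

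Markers of other cell types also differed between these groups of lungs. In the P5 *Vangl2* comparison, 7 of 8 myofibroblast and smooth muscle markers and 7 of 8 endothelial markers had log2 fold changes below 0, with medians of -0.56 and -0.49. The summed level of the myofibroblast and smooth muscle markers was 46664 to 60307 normalized counts in controls and 27217 to 53072 in mutants, and that of the endothelial markers 75194 to 84165 and 45250 to 72372. All 5 neutrophil markers were above 0 (median 2.14), with sums of 2292 to 3081 and 6741 to 16045, as were all 6 club and ciliated markers (median 1.29). All 8 alveolar type I markers were above 0 (median 0.23) and 7 of 8 alveolar type II markers (median 0.47), of which *Etv5* is also on the list of ERK targets, and 4 of 8 lipofibroblast and matrix fibroblast markers were on each side (median 0.03). All 5 macrophage markers (median 0.62) and all 5 tested cartilage markers (median 1.35) were above 0, and all 4 erythroid markers below it (median -0.52). In the P2 *Vangl2* comparison the medians were -0.26 for the myofibroblast and smooth muscle, 0.41 for the alveolar type II and 1.30 for the neutrophil markers. All 6 club and ciliated markers (median 0.66), all 5 macrophage markers (median 0.33) and 6 of 8 alveolar type I markers (median 0.45) were above 0 there. All 4 erythroid markers were below 0 (median -1.40). At a limma adjusted p under 0.05, 3 neutrophil, 2 alveolar type II and 1 alveolar type I markers were higher in that comparison. At that level 1 erythroid and 1 myofibroblast and smooth muscle marker were lower. In the P5 *Vangl2* comparison 3 neutrophil markers passed, all higher. In the P2 *Ror2* comparison all 8 alveolar type I markers (median 0.44) and all 8 endothelial markers (median 0.32) were above 0. All 4 erythroid markers (median -1.51) and all 5 macrophage markers (median -0.43) were below 0 there, as were 4 of 5 cartilage markers (median -0.84). In the P5 *Ror2* comparison all 6 club and ciliated markers were above 0 (median 1.24), and all 8 myofibroblast and smooth muscle markers were below 0 (median -0.20). All 5 neutrophil markers (median 0.41) and 7 of 8 alveolar type I markers (median 0.16) were above 0 there, and all 4 erythroid markers below it (median -0.52). The part of these cell types in the values of the 10 genes was not tested. No defining marker of an alveolar, mesenchymal or endothelial list was at 0 in all lungs. Among the P5 *Vangl2* lungs *Xist*, expressed in female mice, had 19.2 normalized counts in mutant replicate 1 and at least 19969 in the other 5, so that sex was not balanced there. At P2 it had 22393, 23.7 and 115 normalized counts in the *Vangl2* controls against 202, 20524 and 18947 in the mutants, so that sex was not balanced at that age either. *Xist* was not examined in the *Ror2* lungs, and the part of sex in the results was not tested.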

How the data were processed

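RNA from the whole left lobe was sequenced by standard Illumina protocols. The authors counted reads per gene on mm10, and the deposited signal values are these counts scaled by the size factor of the lung. DESeq2 is named in the submitters' processing notes, while the aligner, counter and use of strand are not given in the sources used here. The authors also deposited their own mean, fold change, test statistic and p-values for each gene, which were not used. Each lung's values were whole multiples of 1 step, and 100% of the values of all 24 lungs lay within 0.02 of a whole read.

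Genes with at least 1 normalized count in at least 3 lungs of a comparison were tested with limma 3.58.1 (R 4.3.3; lmFit and eBayes with trend) on log2(normalized count + 1), which understates changes of weakly expressed genes, with Benjamini-Hochberg adjustment at 0.05. Differences between comparisons were tested over 12 lungs with each comparison's own controls. The alternatives were a replicate block, all 24 lungs in 1 fit, edgeR 4.0.16 and DESeq2 1.42.0 on the recovered reads, pseudocount 5, other filters and scalings, and each lung left out. edgeR called 641, 69, 0 and 25 genes in *Vangl2* P2, *Vangl2* P5, *Ror2* P2 and *Ror2* P5. Scripts were tested on simulated data. Nothing says that lungs of a group came from different litters, and p-values measure only the spread between the lungs sampled.

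Same-numbered lungs were taken as paired where every r of their deviations exceeded 0.1, which held for *Vangl2* P5 (0.38, 0.35 and 0.23) alone. This pairing comes from the data, not from the labels. The members and gene lists were chosen with earlier results of these data known. Of the other pathway genes, those with an adjusted p under 0.05 were named, up to 8 in a comparison, or the 3 with the lowest p, and for each member the 2 genes with the highest Pearson r. For the block in *Vangl2* P5 all called list genes are given. Coordinates and promoter stretches come from RefSeq on GRCm38.p6, the same assembly as mm10, and exon lengths from GENCODE vM21. Of the 23420 genes, 186 had no chromosome in RefSeq.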

Additional observations from a re-analysis of the deposited data

Results flagged for a closer look

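The value of *Fgfr3* in control replicate 1 of the P5 *Ror2* comparison was set to missing, although the lung has reads on the part of chromosome 5 that holds the gene. It is 3330 normalized counts, below the other 2 controls. With it the 3 controls averaged 3629 ± 298 normalized counts (SD, n = 3), every mutant lay above every control, and the log2 fold change was 0.36 (limma adjusted p = 0.447 with all values of that lung kept as deposited).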

How the results depend on the processing

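Leaving out single lungs moved the number of genes called between 1 (without control replicate 2) and 2333 (without mutant replicate 3) in *Vangl2* P2, between 0 (without mutant replicate 3) and 54 (without mutant replicate 2) in *Vangl2* P5, between 0 (without control replicate 2) and 859 (without mutant replicate 2) in *Ror2* P2, between 0 (without control replicate 2) and 790 (without mutant replicate 3) in *Ror2* P5, and between 0 and 4 in the P5 difference of *Vangl2* from *Ror2*, with none of the 10 FGF genes called in any of these. With all 24 lungs in 1 fit, limma called 1123, 1928, 3 and 103 genes in *Vangl2* P2, *Vangl2* P5, *Ror2* P2 and *Ror2* P5 and 1 gene in each difference of *Vangl2* from *Ror2* (2 at P5 in the main test). Of the 10, that fit called 1 in *Vangl2* P2 (*Fgfr4*, adjusted p = 0.0451) and 3 in *Vangl2* P5 (*Fgf10*, *Fgfr4* and *Spry4*, adjusted p = 0.0349, 0.0357 and 0.0488). DESeq2 called 1913, 1199, 666 and 801 genes, with 1 of the 10 in *Vangl2* P5 and 1 in *Ror2* P5, where edgeR called none of the 10. In *Ror2* P2, where limma and edgeR called 0 genes, 3380 and 3344 had an unadjusted p under 0.05. Scaling lungs to the same total gave 193 genes in *Vangl2* P5 and 35 in *Ror2* P5.

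With the replicate block, 1558 genes and 2 of the 10 were called in *Vangl2* P5, and 1 gene in each of *Ror2* P2 and *Ror2* P5. In those and in *Vangl2* P2 the shared number was not a pairing, by the same check, with r from -0.09 to 0.21 between same-numbered lungs, and the block called none of the 10 there, though in *Ror2* P2 every lung correlated best with its own number, a hint from the data and not from the design. An alternative chosen after seeing the data, the block with both lungs of 1 number left out in *Vangl2* P5, called 477, 206 and 1906 genes without numbers 1, 2 and 3, and 3 of the 10 without number 3. With control replicate 1 of *Ror2* P5 as deposited, 1 gene was called, and *Fgfr1* had a log2 fold change of 3.57 because that lung lists the gene at 0. Over the alternatives, 592 of 640 log2 fold changes of the 10 genes kept their direction, and 42 of the other 48 were under 0.1 in size in the main test. The cause of these differences was not tested. Apart from the values set to missing, the lowest value of the 10 genes in any lung was 333 normalized counts. With 3 lungs in a group, what could be called is limited.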
